A study of Mus musculus with 10 samples.

Results

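The genes described here are the cytochromes P450 of families 1 to 3, the drug- and steroid-oxidising P450s of the liver, without Cyp2e1. They were taken by symbol (Cyp1a, Cyp1b, every Cyp2 subfamily and Cyp3a, each with a number), and entries marked as pseudogenes by -ps were left out. This gave 59 genes of 24062 in the table, in 15 subfamilies. A value of at least 1 normalised read count in at least 2 of the 10 libraries was reached by 41 members in 12 subfamilies, and only these were tested, among 12648 tested genes in all. Of the 18 members below that level, 6 were 0 in every library and the highest value of any was 1.75.

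P450 enzymes are haem proteins of the endoplasmic reticulum that insert an oxygen atom into lipophilic compounds, using electrons passed on by P450 oxidoreductase (Por). Their transcription in hepatocytes is driven by liver factors such as Hnf4a and by ligand-sensing receptors, among them Ahr for the Cyp1 family, Nr1i3 (CAR) for Cyp2b10 and Nr1i2 (PXR) for Cyp3a11. In mice many Cyp2 and Cyp3a genes also differ between males and females under the pattern of growth hormone release.

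Poly-A RNA was sequenced from mouse liver in 5 groups. The tumour group had 2 libraries, each from a liver tumour of a single mouse given Western diet and carbon tetrachloride (CCl4), a liver toxin, for 24 weeks. The liver groups were Western diet with CCl4 (WD CCl4), Western diet with oil vehicle (WD oil), normal diet with CCl4 (ND CCl4) and normal diet with oil (ND oil), each with 1 pool of 4 mice at 12 weeks and 1 at 24 weeks. The labels used here state no strain, sex, age or CCl4 dose. Every group carries either CCl4 or its oil vehicle, so no group without either is described.

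The libraries held 23206229 to 30137802 reads, and values are normalised read counts as deposited. Pairs of pool values below are at 12 and then 24 weeks. Changes are log2 fold changes on the log2(value + 1) scale with the standard error of the fit, tested by limma with Benjamini-Hochberg adjustment over all tested genes and a threshold of 0.05. No condition had a replicate pool at the same duration, and the model holds a term for duration. The p-values therefore weigh changes against how the difference between 12- and 24-week pools varies from group to group. In the tumour comparison the difference between the tumours enters as well. Transcripts of hepatocyte markers summed to 136030 and 372100 in the tumours, and to 174210 and 123360 in WD CCl4, 209020 and 188190 in WD oil, 150580 and 132100 in ND CCl4 and 237880 and 229850 in ND oil. In bulk tissue, fewer hepatocytes and less RNA per hepatocyte cannot be told apart.

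The members together took a smaller share of all reads in CCl4-exposed liver than in oil-treated liver on the same diet, and the smallest share in tumours. That share was 0.654% and 0.453% in the tumours, 1.33% and 1.09% in WD CCl4, 2.52% and 2.28% in WD oil, 1.27% and 1.15% in ND CCl4 and 1.88% and 1.93% in ND oil. The groups with CCl4 did not overlap those with oil, and the tumours lay below all 8 pools. Cyp3a11 held the most reads of any member in all 8 pools. The leading member was Cyp2a5 in tumour 1, with 19.7% of member reads, and Cyp2d26 in tumour 2, with 25.3%. Per kilobase of exon, the mean level in ND oil was highest for Cyp3a11 at 2838 normalised counts per kb, followed by Cyp2c29 at 1086, Cyp2f2 at 973, Cyp2d9 at 812 and Cyp2d26 at 565.

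On the normal diet, livers given CCl4 were set against livers given oil. Of the 41 tested members, 22 fell and 6 rose. Among all tested genes, 10.6% fell and 15.3% rose, or 26.0% in either direction. Of the 22, Cyp2c40 and Cyp2c69 reached the level for testing only with the help of the ND oil pools, where they are high, so that their fall against ND oil is partly fixed by the filter, and 20 others fell. The median member change was -0.75, against 0.00 for all tested genes. Of 24 tested hepatocyte markers, 10 fell and none rose, with a median of -0.65, while 10 of 14 macrophage markers, 11 of 12 stellate cell and myofibroblast markers, 6 of 8 endothelial markers and 4 of 8 bile duct markers rose. The summed macrophage markers ran from 665 to 1023 in ND CCl4 and from 316 to 453 in ND oil, and the stellate cell sums from 647 to 946 in ND CCl4 and from 245 to 252 in ND oil. The part of these shifts in the P450 changes was not tested. All 28 called members moved the same way at 12 and at 24 weeks. Leaving out 1 library moved the count by over 1.5 times for the 24-week ND oil pool, without which 10 members were called, and for the 12-week ND CCl4 pool, without which 18 were. Without the filter on low values 11 members were called, and with the tumours in the same fit 3 were.

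On the Western diet the same contrast of CCl4 with oil was made, in a pair of groups that shares no pool with the comparison on the normal diet. Here 17 members fell and 2 rose, against 2.52% and 4.29% of all tested genes (6.82% in either direction), and the median member change was -0.57, against -0.02 for all tested genes. Of the hepatocyte markers 2 of 24 fell, with a median of -0.43, and 7 of 14 macrophage and 5 of 12 stellate cell markers rose. Of the members that fell, 15 fell on both diets, which is 88.2% of those on the Western diet and 68.2% of those on the normal diet. Both contrasts came from 1 fit of the 8 pools, with a shared estimate of spread and a shared duration term. They are therefore not independent, and the overlap among all tested genes was not counted. Both members that rose, Cyp1b1 and Cyp2a4, rose on both diets. All 19 called members moved the same way at both durations. The count was 6 without the 12-week WD oil pool, 2 without the 24-week WD oil pool, 8 without the 24-week WD CCl4 pool and 7 without a term for duration. With the tumours in the fit, or without the filter on low values, no member was called.

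**Figure D1:**
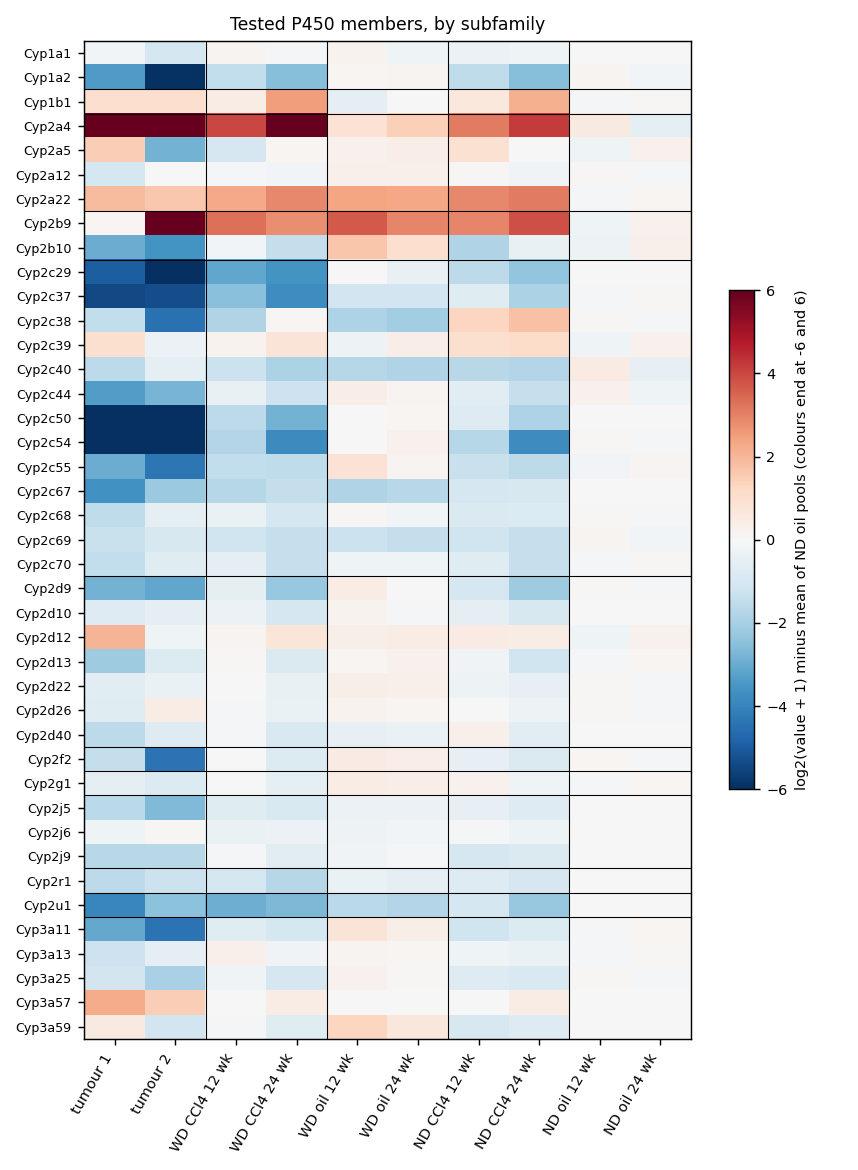
Difference of log2(value + 1) from the mean of the ND oil pools for the 41 tested members, grouped by subfamily, in each of the 10 libraries; colours end at -6 and 6. Most Cyp2c genes are lower in the CCl4 pools and in the tumours, Cyp2a4 is higher in both, and Cyp2a22 and Cyp2b9 are higher in all 6 other pools than in ND oil.

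In the Cyp1 family, Cyp1a2 fell and Cyp1b1 rose with CCl4 on either diet. Cyp1a2, which oxidises aromatic amines and caffeine, had 68.7 and 11.0 in the tumours, 262 and 121 in WD CCl4, 792 and 803 in WD oil, 250 and 123 in ND CCl4 and 803 and 655 in ND oil. Every CCl4 pool lay below every oil pool, and the tumours below all pools. It fell by 2.16 ± 0.25 on the Western diet (limma adjusted p = 0.0045) and by 2.04 ± 0.25 on the normal diet (limma adjusted p = 0.00107). Cyp1b1, which is mostly expressed outside hepatocytes, had 2.42 and 2.33 in the tumours, 1.31 and 8.65 in WD CCl4, 0.171 and 0.667 in WD oil, 1.63 and 6.38 in ND CCl4 and 0.621 and 0.732 in ND oil. All 4 CCl4 pools lay above all 4 oil pools, with the 24-week CCl4 pools highest. It rose by 1.76 ± 0.42 on the Western diet (limma adjusted p = 0.0432) and by 1.40 ± 0.42 on the normal diet (limma adjusted p = 0.0395). Stellate cell and macrophage markers rose in the same comparisons, and their part in the Cyp1b1 change was not tested. Cyp1a1, the Ahr-induced hydroxylase of aromatic hydrocarbons, was low throughout, from 0.155 in tumour 2 to 1.75 in the 12-week WD oil pool, and was called in no comparison.

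The Cyp2a genes of mouse chromosome 7 split between neighbours. Cyp2a4, a female-predominant steroid hydroxylase in mice, had 200.5 and 497 in the tumours, 24.1 and 121 in WD CCl4, 1.88 and 3.30 in WD oil, 12.6 and 28.1 in ND CCl4 and 1.29 and 0.0915 in ND oil, the last being 2 reads. The groups with and without CCl4 did not overlap, and both tumours lay above every pool. It rose by 3.98 ± 0.59 with CCl4 on the Western diet (limma adjusted p = 0.01) and by 3.65 ± 0.59 on the normal diet (limma adjusted p = 0.00367). Cyp2a5, the mouse coumarin hydroxylase, had 1171 and 58.5 in the tumours, 212 and 468 in WD CCl4, 503 and 557 in WD oil, 807 and 414 in ND CCl4 and 359 and 502 in ND oil. On the Western diet both CCl4 pools lay below both oil pools, on the normal diet the groups overlapped, and the tumours held the highest and the lowest value of all libraries. Its change was -0.75 ± 0.38 on the Western diet and 0.44 ± 0.38 on the normal diet, neither of which passed the threshold.

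Cyp2a4 and Cyp2a5 share reads in principle: 36.1% of the 50-base stretches of the Cyp2a4 exons also occur in Cyp2a5, and 29.3% of those of Cyp2a5 in Cyp2a4, so a part of either value may come from the other gene. Their promoters are shown because near-identical letters stand before genes with different changes. In the RefSeq promoter table (build GRCm38.p6), 215 bases upstream of both genes aligned without a gap and with 4 substitutions, marked in capitals. The Cyp2a4 stretch is chr7:26306943-26307157 and the Cyp2a5 stretch chr7:26835089-26835303, both on the plus strand.
Cyp2a4: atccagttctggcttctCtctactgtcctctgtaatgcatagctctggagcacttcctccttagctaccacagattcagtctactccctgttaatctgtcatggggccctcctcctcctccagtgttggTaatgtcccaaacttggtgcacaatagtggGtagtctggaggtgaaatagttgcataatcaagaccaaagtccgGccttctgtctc
Cyp2a5: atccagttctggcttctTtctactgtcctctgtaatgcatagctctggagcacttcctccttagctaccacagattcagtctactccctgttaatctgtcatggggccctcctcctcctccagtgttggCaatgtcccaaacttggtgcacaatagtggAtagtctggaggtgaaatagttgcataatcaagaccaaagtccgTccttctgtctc

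Cyp2a22 stood apart in the ND oil pools. It had 5.43 and 4.31 in the tumours, 7.34 and 11.9 in WD CCl4, 7.90 and 7.67 in WD oil, 11.7 and 14.0 in ND CCl4 and 0.577 and 0.915 in ND oil. Every other library lay above both ND oil pools, and the 6 other pools lay between 7.34 and 14.0. It rose by 2.34 ± 0.20 with the Western diet alone (limma adjusted p = 0.00149) and by 2.99 ± 0.20 with CCl4 alone (limma adjusted p = 6.75e-05). On the Western diet its change with CCl4 was 0.24 ± 0.20 and did not pass. The difference between the CCl4 effects on the 2 diets was itself called, at -2.75 ± 0.28 (limma adjusted p = 0.00832), and it was the only called member of the 41, where 0.103% of all tested genes were called. That call was lost without either ND oil pool or either WD oil pool. Cyp2a12, which hydroxylates steroids and bile acids in mice, shares 27.5% of its 50-base stretches with Cyp2a22 and ran from 531 to 759 in the pools, against 292 and 605 in the tumours, with no call.

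Of the Cyp2b genes, Cyp2b9 and Cyp2b10 passed the level for testing and moved differently. Cyp2b9, female-predominant in mice, had 0.469 and 158 in the tumours, 12.3 and 8.30 in WD CCl4, 16.5 and 9.49 in WD oil, 9.27 and 19.1 in ND CCl4 and 0.133 and 0.640 in ND oil. The 6 other pools all lay above both ND oil pools, and the tumours lay at opposite ends. It rose by 3.31 ± 0.37 with the Western diet alone (limma adjusted p = 0.00599) and by 3.40 ± 0.37 with CCl4 alone (limma adjusted p = 0.000659), while its change with CCl4 on the Western diet was -0.28 ± 0.37. The interaction was -3.68 ± 0.53 and did not pass (limma adjusted p = 0.0534).

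Cyp2b10, the classical target of CAR, had 0.626 and 0.0776 in the tumours, 10.4 and 3.88 in WD CCl4, 40.5 and 25.2 in WD oil, 2.70 and 8.61 in ND CCl4 and 9.58 and 14.9 in ND oil. On each diet both CCl4 pools lay below both oil pools, the WD oil pools were the highest, and the tumours lay below all pools. It fell by 2.14 ± 0.51 with CCl4 on the Western diet (limma adjusted p = 0.043), and its change on the normal diet was -1.12 ± 0.51 (limma adjusted p = 0.136). Nr1i3, which encodes CAR, had 33.4 and 9.28 in the tumours, 28.0 and 24.6 in WD CCl4, 43.8 and 51.6 in WD oil, 68.1 and 52.8 in ND CCl4 and 57.9 and 60.7 in ND oil. The WD CCl4 pools were the lowest of the liver pools, and Nr1i3 fell by 0.83 ± 0.15 with CCl4 on the Western diet (limma adjusted p = 0.0197).

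Cyp2b13 was not tested, with values from 0 to 0.772, the highest in the 24-week ND CCl4 pool. Its promoter is shown beside that of Cyp2b9, a gene of the same female-predominant pair, because 250 upstream bases differ by 2 substitutions (capitals) while the pools hold almost no Cyp2b13 reads. The Cyp2b9 stretch is chr7:26173159-26173408 and the Cyp2b13 stretch chr7:26061245-26061494, both on the plus strand.
Cyp2b9: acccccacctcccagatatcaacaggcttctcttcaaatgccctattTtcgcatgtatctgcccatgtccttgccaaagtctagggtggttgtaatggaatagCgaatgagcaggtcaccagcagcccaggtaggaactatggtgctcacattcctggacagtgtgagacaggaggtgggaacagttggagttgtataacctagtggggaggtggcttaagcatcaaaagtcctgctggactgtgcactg
Cyp2b13: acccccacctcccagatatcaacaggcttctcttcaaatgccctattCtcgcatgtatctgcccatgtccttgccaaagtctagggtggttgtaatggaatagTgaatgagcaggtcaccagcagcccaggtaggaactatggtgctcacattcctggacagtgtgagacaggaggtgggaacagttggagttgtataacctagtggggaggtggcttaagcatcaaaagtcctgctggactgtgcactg

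**Figure D2:**
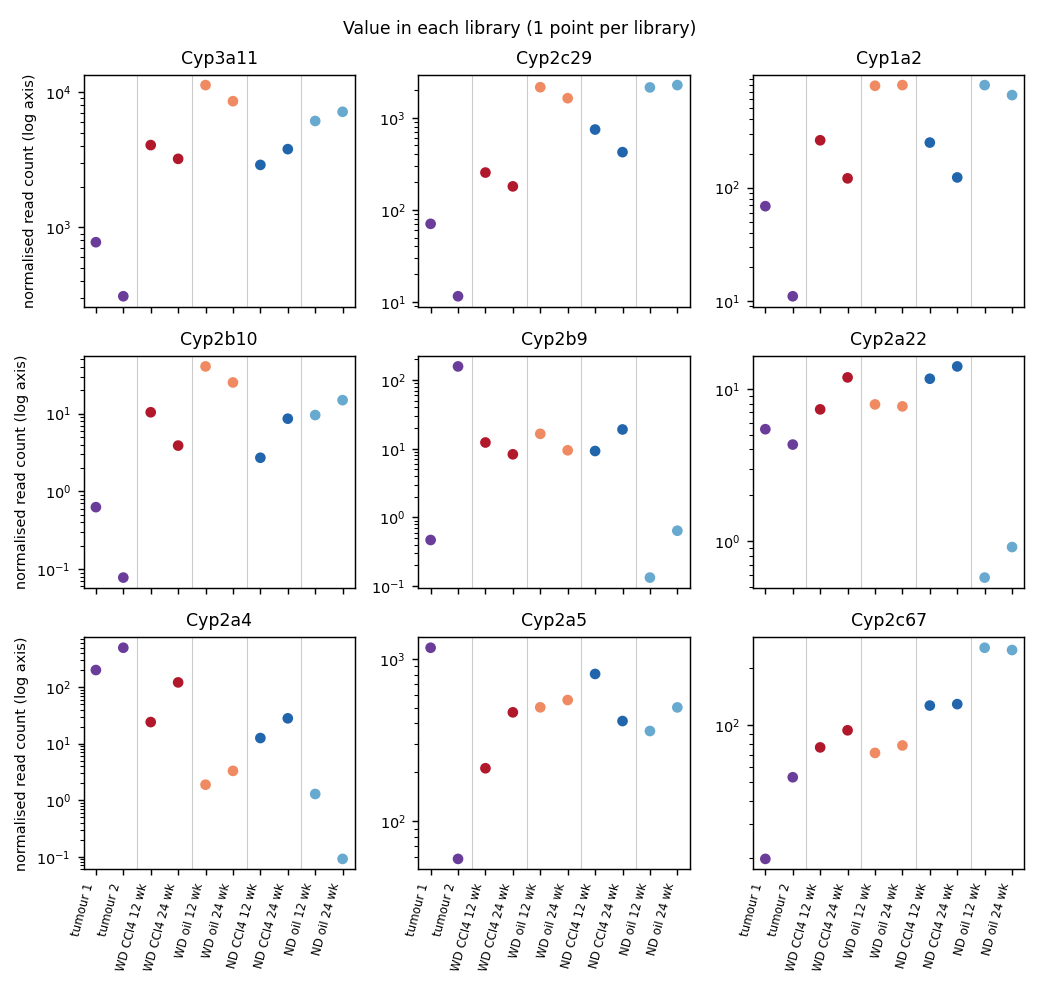
Normalised read count (log axis) of 9 members in each library, 1 point per library, with the tumours at the left and ND oil at the right. Cyp3a11, Cyp2c29 and Cyp1a2 are lower in all CCl4 pools than in all oil pools, Cyp2a4 is higher, and Cyp2b9, Cyp2a22 and Cyp2c67 differ between the ND oil pools and the 6 others.

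The Cyp2c subfamily, whose enzymes include the epoxygenases of arachidonic acid in mouse liver, held 13 of the tested members. On the normal diet 11 of them fell with CCl4, Cyp2c40 and Cyp2c69 among them, and 2 rose, of 22 members that fell in all. Among all tested genes 10.6% fell and 15.3% rose there. On the Western diet 7 fell, of 17 in all, and none rose, where 2.52% of all tested genes fell and 4.29% rose. Cyp2c29, the most abundant of them per kilobase in ND oil, had 70.5 and 11.5 in the tumours, 254 and 180 in WD CCl4, 2143 and 1628 in WD oil, 744 and 423 in ND CCl4 and 2132 and 2260 in ND oil. The groups with and without CCl4 did not overlap, and the WD CCl4 pools lay below the ND CCl4 pools. It fell by 3.12 ± 0.20 on the Western diet (limma adjusted p = 0.000238) and by 1.97 ± 0.20 on the normal diet (limma adjusted p = 0.000481). The difference between the 2 diets was -1.16 ± 0.28 and did not pass (limma adjusted p = 0.266).

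Cyp2c37, Cyp2c50 and Cyp2c54 are neighbouring fatty acid epoxygenase genes that share 25.7% to 30.1% of their 50-base stretches with other genes. Cyp2c50 had 12.6 and 9.78 in the tumours, 287 and 118 in WD CCl4, 851 and 931 in WD oil, 500 and 239 in ND CCl4 and 874 and 836 in ND oil. Cyp2c54 had 3.32 and 0.699 in the tumours, 100.05 and 23.6 in WD CCl4, 340 and 417 in WD oil, 106 and 24.0 in ND CCl4 and 366 and 326 in ND oil. For both, all CCl4 pools lay below all oil pools, the 24-week CCl4 pools below the 12-week ones, and the tumours below everything. Cyp2c54 had the largest fall of any member on the normal diet, by 2.74 ± 0.53 (limma adjusted p = 0.00727), and fell by 2.92 ± 0.53 on the Western diet (limma adjusted p = 0.0188). Cyp2c50 fell by 2.27 ± 0.31 on the Western diet (limma adjusted p = 0.00703) and by 1.31 ± 0.31 on the normal diet (limma adjusted p = 0.0175).

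Cyp2c37 was also lower with the diet. It had 7.78 and 8.54 in the tumours, 65.3 and 27.2 in WD CCl4, 166 and 170 in WD oil, 224 and 101 in ND CCl4 and 355 and 395 in ND oil. The WD CCl4 pools were lowest of the pools and the ND oil pools highest, with WD oil and ND CCl4 overlapping between them. It fell by 1.96 ± 0.32 with CCl4 on the Western diet (limma adjusted p = 0.0133) and by 1.31 ± 0.32 on the normal diet (limma adjusted p = 0.0199), and its change with the diet alone was -1.15 ± 0.32 (limma adjusted p = 0.12).

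The genes Cyp2c67, Cyp2c68, Cyp2c40 and Cyp2c69 lie side by side on chromosome 19 and share 43.3% to 70.2% of their 50-base stretches, so their values are uncertain one against another. Cyp2c67 had 19.7 and 53.1 in the tumours, 76.4 and 94.0 in WD CCl4, 71.4 and 78.2 in WD oil, 127 and 129 in ND CCl4 and 257 and 250 in ND oil. It was the only member whose 4 Western diet pools did not overlap the 4 normal diet pools, all below them, as 1.78% of all tested genes were. It fell by 1.75 ± 0.12 with the diet alone (limma adjusted p = 0.000507) and by 0.98 ± 0.12 with CCl4 on the normal diet (limma adjusted p = 0.000976), and its change with CCl4 on the Western diet was 0.18 ± 0.12.

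Cyp2c40, an arachidonic acid hydroxylase, had 0.430 and 1.94 in the tumours, 0.730 and 0.144 in WD CCl4, 0.299 and 0.185 in WD oil, 0.318 and 0.237 in ND CCl4 and 4.97 and 1.97 in ND oil. Cyp2c69 had 0.117 and 0.427 in the tumours, 0.230 and 0.0575 in WD CCl4, 0.128 and 0.0371 in WD oil, 0.199 and 0.0594 in ND CCl4 and 2.13 and 1.46 in ND oil. Both were higher in each ND oil pool than in any other library, at low levels. Outside the ND oil pools the level for testing was reached in 1 library for Cyp2c40 and in 0 for Cyp2c69, so both were tested only because of the group where they are high, and the values below are a description. Cyp2c40 fell by 1.76 ± 0.27 with the diet alone (limma adjusted p = 0.0172) and by 1.72 ± 0.27 with CCl4 alone (limma adjusted p = 0.00328). Cyp2c69 fell by 1.36 ± 0.22 with the diet alone (limma adjusted p = 0.0191) and by 1.30 ± 0.22 with CCl4 alone (limma adjusted p = 0.00405). Cyp2c68 followed CCl4 instead, with 45.9 and 88.6 in the tumours, 103 and 65.0 in WD CCl4, 142 and 118 in WD oil, 74.0 and 74.8 in ND CCl4 and 140 and 128 in ND oil. It fell by 0.66 ± 0.16 with CCl4 on the Western diet (limma adjusted p = 0.0432) and by 0.84 ± 0.16 on the normal diet (limma adjusted p = 0.0064).

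Cyp2c55, Cyp2c44 and Cyp2c70 also fell with CCl4. Cyp2c55, a hydroxylase of arachidonic acid induced through CAR and PXR, had 2.42 and 0.349 in the tumours, 8.68 and 8.33 in WD CCl4, 47.9 and 28.7 in WD oil, 9.59 and 8.10 in ND CCl4 and 22.7 and 29.5 in ND oil. It fell by 2.002 ± 0.22 on the Western diet (limma adjusted p = 0.00398) and by 1.45 ± 0.22 on the normal diet (limma adjusted p = 0.00291), with all CCl4 pools below all oil pools. Cyp2c44, an epoxygenase that RefSeq lists as Cyp2c23, had 45.2 and 65.9 in the tumours, 340 and 195 in WD CCl4, 615 and 516 in WD oil, 301 and 181 in ND CCl4 and 556 and 391 in ND oil. It fell by 1.12 ± 0.15 on the Western diet and by 0.997 ± 0.15 on the normal diet (limma adjusted p = 0.00572 and 0.00245). Cyp2c70, which makes the muricholic acids of mouse bile, had 245 and 414 in the tumours, 464 and 263 in WD CCl4, 561 and 573 in WD oil, 413 and 262 in ND CCl4 and 646 and 708 in ND oil. It fell by 1.04 ± 0.23 on the normal diet (limma adjusted p = 0.0126), and its change on the Western diet was -0.70 ± 0.23 (limma adjusted p = 0.102).

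Cyp2c38 and Cyp2c39, a pair of neighbours, went against the rest of the cluster. Cyp2c38 had 9.03 and 0.233 in the tumours, 7.03 and 28.4 in WD CCl4, 6.79 and 5.56 in WD oil, 66.3 and 94.3 in ND CCl4 and 28.7 and 25.2 in ND oil. Cyp2c39, a retinoic acid hydroxylase, had 3.05 and 0.621 in the tumours, 1.42 and 2.59 in WD CCl4, 0.684 and 1.74 in WD oil, 3.14 and 3.44 in ND CCl4 and 0.754 and 1.51 in ND oil. On the normal diet both CCl4 pools lay above both oil pools for each gene. Cyp2c38 rose there by 1.52 ± 0.42 (limma adjusted p = 0.0309) and Cyp2c39 by 1.03 ± 0.22 (limma adjusted p = 0.0111). On the Western diet the change of Cyp2c38 was 1.10 ± 0.42 and that of Cyp2c39 was 0.46 ± 0.22, and neither passed. Cyp2c38 had a change of -1.96 ± 0.42 with the diet alone (limma adjusted p = 0.0599).

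**Figure D3:**
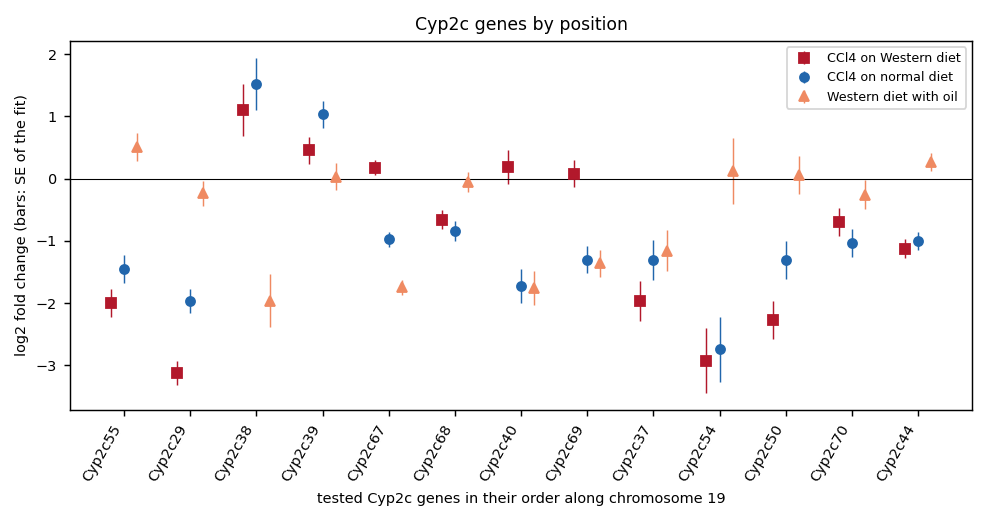
Log2 fold change, with the standard error of the fit, of the 13 tested Cyp2c genes in their order along chromosome 19, for CCl4 on each diet and for the diet alone. Cyp2c38 and Cyp2c39 are the only genes above 0 with CCl4 on the normal diet. With the diet alone, only the falls of Cyp2c67, Cyp2c40 and Cyp2c69 passed the threshold. Cyp2c38 at -1.96 and Cyp2c37 at -1.15 also lie well below 0 there but did not pass. Cyp2c68, in the same block as Cyp2c67, lies near 0 at -0.05.

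The promoter letters of members of all subfamilies with a RefSeq window were searched for short motifs on both strands, in the 250 bases before each RefSeq start. The letters CAAAGTCCA, a form of the Hnf4a site, occurred in 10 of 54 member windows (18.5%) and in 126 of 32851 windows in all (0.384%). The member windows belonged to 51 of the 59 genes. The 10 genes were Cyp2c40, Cyp2c65, Cyp2c67, Cyp2c68, Cyp2c69, Cyp2c70, Cyp3a11, Cyp3a16, Cyp3a41a and Cyp3a41b, several of which are recent duplicates of each other. Hnf4a had 443 and 764 in the tumours, 733 and 515 in WD CCl4, 835 and 685 in WD oil, 560 and 543 in ND CCl4 and 770 and 709 in ND oil, and its changes with CCl4, -0.30 ± 0.15 on the Western diet and -0.42 ± 0.15 on the normal diet, did not pass. The surroundings of the match, in capitals, are shown for a pair of close paralogs and for Cyp2c70, all on the minus strand of chromosome 19. The stretches are chr19:39649109-39649208 for Cyp2c67, chr19:39812815-39812900 for Cyp2c40 and chr19:40187334-40187391 for Cyp2c70, and the match begins 125, 45 and 64 bases before the RefSeq start.
Cyp2c67: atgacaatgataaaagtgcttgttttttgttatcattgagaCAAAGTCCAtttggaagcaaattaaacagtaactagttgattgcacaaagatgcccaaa
Cyp2c40: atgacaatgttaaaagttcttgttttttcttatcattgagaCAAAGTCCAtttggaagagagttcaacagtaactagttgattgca
Cyp2c70: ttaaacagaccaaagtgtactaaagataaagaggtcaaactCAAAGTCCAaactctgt

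Other letters searched were the dioxin response core GCGTG, found in 9 of 54 member windows (16.7%) against 28.2% of all windows, and the TATA box TATAAA, found in 24 (44.4%) against 12.4%. The D-box TTATGTAA, bound by Dbp and Tef, was in no member window and in 0.819% of all windows. TTCNNNGAA, the STAT-type motif, was in 2 (3.70%) against 7.02%, and CCAAT in 18 (33.3%) against 33.8%. The motifs can overlap each other, and a match of letters is a description of these windows.

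In the Cyp2d subfamily, 3 of 7 tested genes fell with CCl4 on the Western diet and 2 on the normal diet. The shares of all tested genes that fell were 2.52% and 10.6%. Cyp2d9, a male-predominant testosterone hydroxylase in mice, had 192 and 157 in the tumours, 951 and 288 in WD CCl4, 1869 and 1407 in WD oil, 686 and 318 in ND CCl4 and 1456 and 1323 in ND oil. All CCl4 pools lay below all oil pools, the 24-week ones lowest, and the tumours below both. It fell by 1.63 ± 0.32 on the Western diet (limma adjusted p = 0.0244) and by 1.57 ± 0.32 on the normal diet (limma adjusted p = 0.00944). Cyp2d10 had 414 and 466 in the tumours, 553 and 353 in WD CCl4, 833 and 678 in WD oil, 485 and 367 in ND CCl4 and 719 and 702 in ND oil, and fell by 0.76 ± 0.16 and 0.75 ± 0.16 on the Western and the normal diet (limma adjusted p = 0.0272 and 0.0103). Cyp2d22, the mouse relative of human CYP2D6, fell by 0.56 ± 0.13 on the Western diet (limma adjusted p = 0.0408), and its change on the normal diet was -0.39 ± 0.13 (limma adjusted p = 0.0595). Cyp2d26 was among the steadier abundant members, at 577 and 1322 in the tumours, 888 and 728 in WD CCl4, 1099 and 1035 in WD oil, 948 and 771 in ND CCl4 and 1007 and 913 in ND oil, and was called in no comparison.

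Of 14 listed male-predominant liver genes, Cyp2d9 among them, 13 fell with CCl4 on the normal diet (92.9%, against 10.6% of all tested genes). On the Western diet 7 fell (50%, against 2.52%). The medians were -3.26 on the normal and -2.02 on the Western diet. Of the 10 female-predominant P450 members 5 were tested, of which Cyp2a4, Cyp2b9 and Cyp2c39 rose and Cyp2c40 and Cyp2c69 fell with CCl4 on the normal diet. That is 60% higher and 40% lower, against 15.3% and 10.6% of all tested genes. Cyp2c40 and Cyp2c69 were tested only because of their level in ND oil, so their fall is partly fixed by the filter. The untested members of the list, Cyp2b13, Cyp3a16, Cyp3a41a, Cyp3a41b and Cyp3a44, stayed at or below 1.75 in every library.

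Cyp2f2, Cyp2r1 and Cyp2u1 are the only members of their subfamilies, while Cyp2j has 7 members on chromosome 4, of which 3 were tested. Cyp2f2, which activates naphthalene in mouse lung and liver, had 678 and 84.0 in the tumours, 1831 and 1016 in WD CCl4, 2569 and 2351 in WD oil, 1292 and 977 in ND CCl4 and 1940 and 1692 in ND oil. It fell by 0.85 ± 0.20 with CCl4 on the Western diet and by 0.69 ± 0.20 on the normal diet (limma adjusted p = 0.0404 and 0.034), with both CCl4 pools below both oil pools on each diet. Cyp2r1, a vitamin D hydroxylase, had 8.33 and 10.4 in the tumours, 12.2 and 7.38 in WD CCl4, 20.5 and 18.2 in WD oil, 15.2 and 12.9 in ND CCl4 and 27.1 and 26.7 in ND oil. The ND oil pools were highest and the CCl4 pools lay below all oil pools, with falls of 0.95 ± 0.17 on the Western diet and 0.90 ± 0.17 on the normal diet (limma adjusted p = 0.019 and 0.00727).

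Cyp2u1, a fatty acid hydroxylase, was lower with either exposure. It had 0.352 and 2.79 in the tumours, 1.73 and 2.15 in WD CCl4, 5.77 and 5.01 in WD oil, 8.79 and 3.30 in ND CCl4 and 19.3 and 19.9 in ND oil. Both ND oil pools lay above every other library. It fell by 1.69 ± 0.30 with the diet alone (limma adjusted p = 0.0311) and by 1.67 ± 0.30 with CCl4 alone (limma adjusted p = 0.0059). Cyp2j5, an arachidonic acid epoxygenase of mouse kidney and liver, had 266 and 127 in the tumours, 482 and 425 in WD CCl4, 621 and 622 in WD oil, 568 and 466 in ND CCl4 and 828 and 781 in ND oil, and fell by 0.64 ± 0.13 with CCl4 on the normal diet (limma adjusted p = 0.00828). Cyp2j9 fell there by 0.94 ± 0.22 (limma adjusted p = 0.0178), and Cyp2j6 was not called. Cyp2g1, an olfactory P450, reached 1.45 at most and was called in no comparison.

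In the Cyp3a subfamily 3 of 5 tested genes fell with CCl4 on either diet, and none rose. Of all tested genes 2.52% fell on the Western and 10.6% on the normal diet. Cyp3a11, the main PXR target and a hydroxylase of drugs and bile acids in mouse liver, had 776 and 309 in the tumours, 4065 and 3215 in WD CCl4, 11306 and 8591 in WD oil, 2900 and 3795 in ND CCl4 and 6132 and 7170 in ND oil. The CCl4 pools lay below the oil pools, the WD oil pools were the highest, and the tumours lay below all. It fell by 1.45 ± 0.26 on the Western diet (limma adjusted p = 0.0193) and by 0.999 ± 0.26 on the normal diet (limma adjusted p = 0.0253). Nr1i2, which encodes PXR, ran from 66.98 to 103 in the pools and was called in no comparison.

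Cyp3a25 and Cyp3a59 hold 26.2% and 28.0% of 50-base exon stretches that also occur in other genes, so a part of either value is uncertain, and both fell. Cyp3a25 had 341 and 188 in the tumours, 620 and 366 in WD CCl4, 866 and 769 in WD oil, 430 and 391 in ND CCl4 and 769 and 702 in ND oil, with falls of 0.78 ± 0.17 and 0.84 ± 0.17 on the Western and the normal diet (limma adjusted p = 0.034 and 0.00959). Cyp3a59 had 73.7 and 22.4 in the tumours, 47.5 and 30.5 in WD CCl4, 123 and 82.8 in WD oil, 25.4 and 29.1 in ND CCl4 and 49.5 and 51.7 in ND oil. It fell by 1.38 ± 0.20 with CCl4 on the Western diet (limma adjusted p = 0.00968) and by 0.87 ± 0.20 on the normal diet (limma adjusted p = 0.016), and it rose by 0.98 ± 0.20 with the diet alone (limma adjusted p = 0.0499). Cyp3a13, also expressed in intestine, ran from 149 to 244 in the pools with no call. Cyp3a57 was 0.386 at most in the pools and 3.75 and 1.86 in the tumours. Cyp3a44, which is female-predominant, had its highest value of 1.75 in tumour 2, and Cyp3a41a its highest of 0.0768 in the 12-week WD CCl4 pool.

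**Figure D4:**
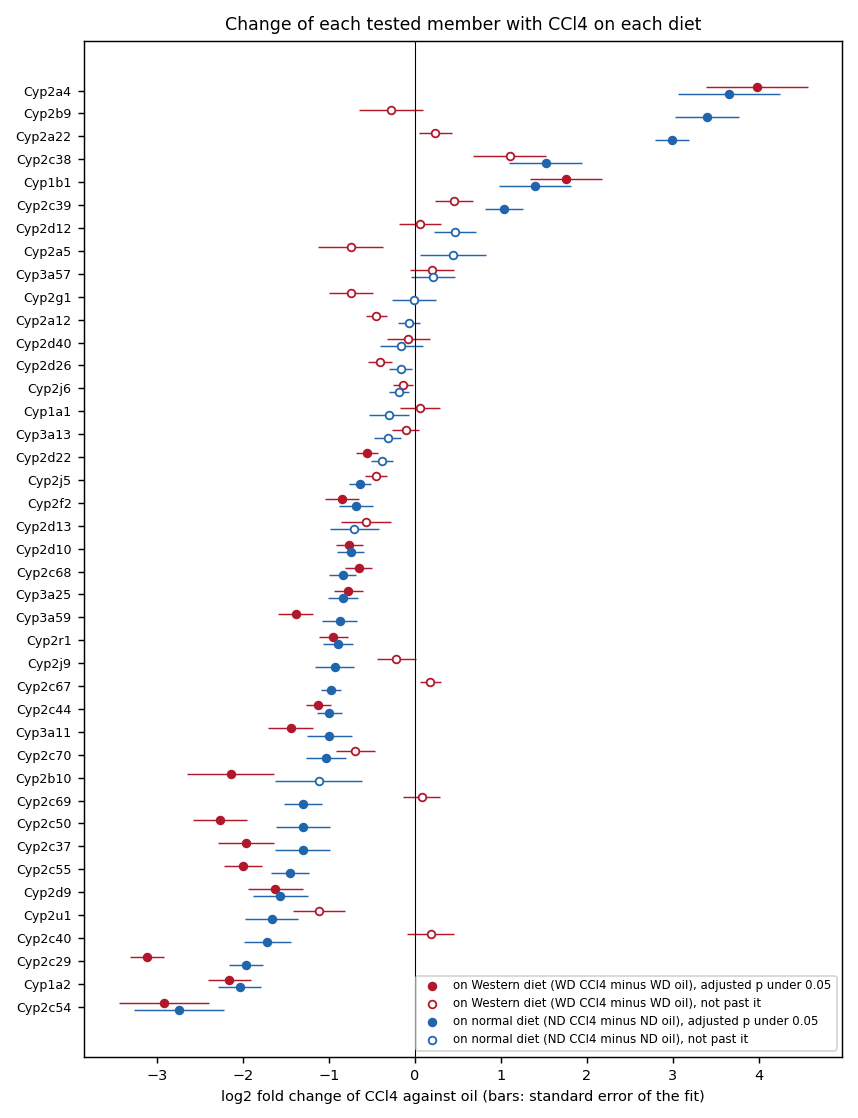
Log2 fold change of CCl4 against oil, with the standard error of the fit, for the 41 tested members on the Western diet (red) and on the normal diet (blue); filled points passed an adjusted p of 0.05. Cyp2b9, Cyp2a22, Cyp2c67, Cyp2c40 and Cyp2c69 lie far from 0 on the normal diet and near it on the Western diet.

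The effect of the diet without the toxin was read from WD oil against ND oil. Of the 41 members, 3 rose (Cyp2b9, Cyp2a22 and Cyp3a59) and 4 fell (Cyp2c40, Cyp2c67, Cyp2c69 and Cyp2u1), against 1.45% and 0.546% of all tested genes (1.99% in either direction). Of the 4, Cyp2c40 and Cyp2c69 were tested only because of their level in ND oil, which leaves 2 others. The median member change was 0.12. No hepatocyte marker was called, while 5 of 14 macrophage and 5 of 12 stellate cell markers rose. This comparison shares the ND oil pools with that of CCl4 on the normal diet, so their changes are not independent. The count was 3 without either ND oil pool, 2 without the 12-week WD oil pool and 3 without the 24-week one.

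Members whose ND oil pools both lay outside all 6 other pools were counted, an arrangement looked for after the values were seen. For 10 of the 41 members (24.4%, against 15.0% of all tested genes) all 6 other pools lay below both ND oil pools, and for 3 (7.32%, against 17.1%) all lay above. The 10 include Cyp2c40 and Cyp2c69, which could be tested only if high in ND oil. All tested genes showed both arrangements at such shares, so being set apart in ND oil is not particular to the members. Those below were Cyp2c37, Cyp2c40, Cyp2c67, Cyp2c69, Cyp2c70, Cyp2j5, Cyp2j6, Cyp2j9, Cyp2r1 and Cyp2u1, and those above were Cyp2a4, Cyp2a22 and Cyp2b9. The clock-controlled transcription factor gene Dbp, whose level swings with the time of day, had 62.4 and 50.1 in WD CCl4, 55.9 and 38.4 in WD oil, 63.6 and 42.2 in ND CCl4 and 1.46 and 2.10 in ND oil, with 1.06 and 85.3 in the tumours. Tef, its relative, had 185 and 136 in WD CCl4, 143 and 111 in WD oil, 159 and 130 in ND CCl4 and 47.8 and 48.0 in ND oil. Both ND oil pools were far below all others for Dbp, which rose by 4.25 ± 0.21 with CCl4 alone (limma adjusted p = 2.02e-05) and by 4.10 ± 0.21 with the diet alone (limma adjusted p = 0.000195). The change of Dbp with CCl4 on the Western diet was 0.27 ± 0.21 and did not pass. The hour of collection is not given in the sources used here, and its part in any comparison was not tested.

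Both exposures together were read from WD CCl4 against ND oil. Here 20 members fell and 4 rose, against 10.2% and 15.7% of all tested genes (25.9% in either direction), and 18 fell besides Cyp2c40 and Cyp2c69. The median change was -0.62, against -0.02 for all tested genes. The largest fall was in Cyp2c29, which fell by 3.36 ± 0.20 (limma adjusted p = 4.04e-05), followed by Cyp2c37, by 3.12 ± 0.32 (limma adjusted p = 0.000409), and Cyp2u1, by 2.81 ± 0.30 (limma adjusted p = 0.000481). Cyp2a4 rose most, by 5.13 ± 0.59 (limma adjusted p = 0.000643), with Cyp2b9 at 3.03 ± 0.37, Cyp2a22 at 2.58 ± 0.20 and Cyp1b1 at 1.49 ± 0.42. Of the hepatocyte markers 10 of 24 fell, with a median of -0.56, and 11 of 14 macrophage and 11 of 12 stellate cell markers rose. The comparison shares the ND oil pools with the preceding ones. Without the 24-week ND oil pool 15 members were called.

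Western diet with CCl4 against normal diet with CCl4 gave no called member by limma, where 0.0474% of all tested genes were called, 0.00791% higher and 0.0395% lower. At an unadjusted p under 0.05 there were 13 members, against 889 of 12648 tested genes. The counts were 0 members and 5 genes in all by edgeR, and 3 members, all lower, and 67 genes in all by DESeq2. Between 24 and 12 weeks over all groups limma also called no member, and no gene at all. There were 15 members at an unadjusted p under 0.05, against 1475 of 12648 tested genes. The counts were 0 members and 1 gene in all by edgeR, and 2 members and 90 genes in all by DESeq2. Within groups, 23 of 41 members (56.1%, against 32.9% of all tested genes) were lower at 24 than at 12 weeks in both CCl4 groups, and 14 (34.1%, against 27.7%) in both oil groups. The CCl4 effect differed between 24 and 12 weeks for 2 members, where 0.0553% of all tested genes were called, in a model chosen after seeing the data. The CCl4 effect of Cyp2c54 was lower at 24 weeks, by -2.14 on the log2 scale, and that of Cyp2c37 by -1.28.

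The tumours were compared with the WD CCl4 livers, at equal duration in the fit. Only Cyp2c50 and Cyp2c44 were called among the 41, both lower, where 0.506% of all tested genes were called lower and 0.466% higher (0.972% in all). Cyp2c50 fell by 3.65 ± 0.38 (limma adjusted p = 0.0169) and Cyp2c44 by 1.93 ± 0.24 (limma adjusted p = 0.0209). At an unadjusted p under 0.05 there were 19 members, against 2114 of 12648 tested genes. The counts were 2 members and 85 genes in all by edgeR, and 13 members and 745 genes in all by DESeq2. The members called by edgeR and DESeq2 were all lower. Each call was lost when any single liver pool was left out. With 1 tumour left out its group holds 1 library, so the difference between the tumours no longer enters the spread. Counts of members from those fits are not read here. Of the 41, 18 lay below both WD CCl4 pools in both tumours (43.9%, against 20.2% of all tested genes) and 3 above (7.32%, against 20.6%). Against all 8 pools, 16 lay below (39.0%, against 9.79%) and Cyp2a4 and Cyp3a57 above (4.88%, against 10.2%). Cyp3a57 was tested only because of the tumours, since its highest pool value was 0.386, so its place above the pools in both counts is set by the filter.

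Each tumour came from 1 mouse, while each pool averages 4 mice and the paired pools differ in duration, so the spread between tumours and that between pools are not measures of the same kind, and only the WD CCl4 pools were set beside the tumours. The median absolute difference between the tumours was 0.93 on the log2 scale for the members and 0.42 for all tested genes, and between the WD CCl4 pools 0.63 and 0.20. The difference between the tumours was at least 1 for 20 of the 41 members and for 1816 of 12648 tested genes. Between the WD CCl4 pools it was at least 1 for 10 members and for 434 tested genes. Cyp2b9 was higher in tumour 2 by 6.76, and Cyp2a5, Cyp2c38, Cyp2f2 and Cyp1a2 were lower in tumour 2 by 4.30, 3.02, 2.998 and 2.53 on that scale. Tumour 1 held more Cyp2a5 and Cyp2f2 and tumour 2 more Cyp2b9, Cyp2a4 and Cyp2d26. Summed hepatocyte markers were higher in tumour 2, and summed bile duct markers were 396 and 856 in tumours 1 and 2, against 144 and 592 in WD CCl4. Most of each bile duct sum was Spp1, with 357 and 772 in the tumours and 121 and 524 in WD CCl4. The median change of the 8 bile duct markers in the tumours against WD CCl4 was -1.19, and none was called. No hepatocyte marker was called between the tumours and the WD CCl4 livers.

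Por and Alas1, which serve all microsomal P450 enzymes, rose with CCl4 on both diets. Por, the electron donor, had 158 and 166 in the tumours, 645 and 540 in WD CCl4, 431 and 327 in WD oil, 629 and 596 in ND CCl4 and 211 and 227 in ND oil. The CCl4 pools lay above all oil pools and the tumours below all pools. Por rose by 0.65 ± 0.14 with CCl4 on the Western diet (limma adjusted p = 0.0333) and by 1.48 ± 0.14 on the normal diet (limma adjusted p = 0.000394), and fell by 1.78 ± 0.19 in the tumours (limma adjusted p = 0.0183). Alas1, the first enzyme of haem synthesis, had 207 and 120 in the tumours, 685 and 682 in WD CCl4, 293 and 307 in WD oil, 803 and 530 in ND CCl4 and 139 and 264 in ND oil. It rose by 1.18 ± 0.28 with CCl4 on the Western diet (limma adjusted p = 0.043) and by 1.76 ± 0.28 on the normal diet (limma adjusted p = 0.00334). Of the 18 tested genes of electron supply and haem turnover, 3 rose and 1 fell with CCl4 on the normal diet (16.7% and 5.56%, against 15.3% and 10.6% of all tested genes) and 2 rose and 1 fell on the Western diet (11.1% and 5.56%, against 4.29% and 2.52%). Cyb5b, a cytochrome b5, fell on both.

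Of the 24 tested receptors and regulators, 4 rose and 3 fell with CCl4 on the normal diet, which is 16.7% and 12.5% and close to the 15.3% and 10.6% of all tested genes. On the Western diet 3 fell (12.5%, against 2.52%) and none rose. Ahr had 10.3 and 15.2 in the tumours, 32.5 and 40.5 in WD CCl4, 47.9 and 48.6 in WD oil, 46.8 and 48.2 in ND CCl4 and 43.8 and 48.3 in ND oil. It was lowest in the tumours and fell there by 1.53 ± 0.21 (limma adjusted p = 0.0238). Of 19 tested targets of these receptors outside the P450s, 7 rose and 2 fell with CCl4 on the normal diet (36.8% and 10.5%, against 15.3% and 10.6%), and none rose and 3 fell on the Western diet (15.8% lower, against 2.52%). The transporter genes Abcc4 and Abcb1a rose by 1.38 ± 0.20 and 1.77 ± 0.27 on the normal diet (limma adjusted p = 0.00228 and 0.00254), and the carboxylesterase gene Ces2a fell by 2.05 ± 0.21 (limma adjusted p = 0.00053). The pericentral zone is where many P450s are expressed. Of 12 pericentral hepatocyte genes, none was called with CCl4 on the normal diet, where 10.6% of all tested genes fell and 15.3% rose. Their median there was 0.13. On the Western diet 2 fell (16.7%, against 2.52%), with a median of -0.63. Of 11 tested periportal genes 6 fell on the normal diet (54.5%, against 10.6%) and 3 on the Western diet (27.3%, against 2.52%).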

How the data were processed

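Liver RNA was poly-A selected and made into libraries with an Illumina TruSeq kit from 200 ng, per the labels' protocols. The submitters' processing notes name STAR and mm10. How reads were counted and scaled, and with which annotation, is not given in the sources used here. Per gene and library the authors deposited 1 normalised signal. In every library 100% of values were whole multiples, to within 0.01, of what 1 read is worth, so reads were recovered. Read shares and zeros carry counting error only.

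Values were taken as log2(value + 1) and tested, two-sided, with limma 3.58.1 in R 4.3.3 (eBayes with trend) after the filter given in the report. The model of the 8 pools had a mean for each diet and treatment and a duration term, leaving 3 residual degrees of freedom. The tumour comparison used all 10 libraries and had 4. Duration pairs the pools, as labelled. Members and gene lists were chosen with earlier results of these data known. Values per library are given for the leading member of each subfamily, 14 followed members, the largest called changes and members called in 3 or more comparisons, and some others were named after their values were seen.

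Alternatives were another pseudocount, other filters, scalings and terms, count tests on the recovered reads (edgeR 4.0.16, DESeq2 1.42.0), and each library left out. The fits were tested on simulated data. Loci and shared 50-base stretches come from GENCODE (GRCm38), the loci of Cyp2c44 and Cyp2d13 from RefSeq, and promoters from RefSeq (GRCm38.p6), aligned with Biopython 1.88. Printed stretches end before the GENCODE start of the gene.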

Additional observations from a re-analysis of the deposited data

Results flagged for a closer look

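For Cyp2a22 the effect of CCl4 differed between the diets, by -2.75 on the log2 scale: it had 7.34 and 11.9 in WD CCl4 and 7.90 and 7.67 in WD oil, against 11.7 and 14.0 in ND CCl4 and 0.577 and 0.915 in ND oil. For Cyp2c54 and Cyp2c37 the effect of CCl4 differed between 24 and 12 weeks, by -2.14 and -1.28, with limma in a model added after seeing the data. Cyp2c54 had 23.6 at 24 weeks and 100 at 12 weeks in WD CCl4, and 24.0 at 24 weeks and 106 at 12 weeks in ND CCl4, while oil pools ran from 326 to 417. Each duration had 1 pool per group, so these differences rest on single pools.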

How the results depend on the processing

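Counts are of members called among those tested. No called member changed direction under any alternative run. Without the filter on low values the counts were 11 for CCl4 on the normal diet, 0 for the Western diet with oil, 15 for both exposures against ND oil, 0 for CCl4 on the Western diet and 0 for the interaction. With all 10 libraries in 1 fit they were 3, 1, 8, 0 and 0 in the same order. The stricter filter gave 4 for the Western diet with oil, and no trend gave 12 for CCl4 on the Western diet. Without the duration term, which is the block that pairs the pools, 7 were called for CCl4 on the Western diet, 2 for the interaction and 9 for the tumours. A pseudocount of 0.1 gave 2 for the interaction. Quantile normalisation gave 1 for the Western diet on CCl4 and 6 for the tumours. DESeq2 gave 3 for the Western diet on CCl4, 5 for the interaction, 2 for 24 against 12 weeks and 13 for the tumours, and edgeR gave 1 for the CCl4 effect at 24 against 12 weeks. The causes were not tested.

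Leaving out 1 library at a time, the counts ran from 10 to 30 for CCl4 on the normal diet, from 2 to 9 for the Western diet with oil, from 15 to 25 for both exposures, from 2 to 21 for CCl4 on the Western diet, from 0 to 2 for the Western diet on CCl4, from 0 to 3 for the interaction and from 0 to 24 for the tumours. Calls kept whichever library was left out numbered 10 of 28 for CCl4 on the normal diet, 15 of 24 for both exposures, 2 of 7 for the diet alone and 2 of 19 for CCl4 on the Western diet, the last being Cyp2c29 and Cyp2c55. The highest count for the tumours came without tumour 1, where the difference between the tumours does not enter the spread, so it says nothing particular to the members. With 1 pool per condition and duration, spread between mice was not measured.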

Other observations

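P450 genes of other families, 26 tested with Cyp2e1 among them, divided between CCl4 and the tumours. With CCl4 on the Western diet 1 rose and 6 fell (3.85% and 23.1%, against 4.29% and 2.52% of all tested genes). On the normal diet 6 rose and 9 fell (23.1% and 34.6%, against 15.3% and 10.6%). Cyp51, a cholesterol synthesis enzyme, fell by 2.51 ± 0.13 on the Western diet (limma adjusted p = 0.0001017) and by 2.77 ± 0.13 on the normal diet (limma adjusted p = 1.668e-05). Cyp7b1, an oxysterol hydroxylase, fell by 2.41 ± 0.31 on the Western and by 3.07 ± 0.31 on the normal diet (limma adjusted p = 0.005514 and 0.000504). Cyp17a1, a steroid hydroxylase, rose by 2.33 ± 0.20 on the Western and by 1.42 ± 0.20 on the normal diet (limma adjusted p = 0.0008542 and 0.001874). Cyp2e1, which activates CCl4, had 5042 and 4068 in WD CCl4, 5158 and 5680 in WD oil, 6858 and 4867 in ND CCl4 and 6614 and 5765 in ND oil, and was called with CCl4 on neither diet.

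In the tumours Cyp7a1, the rate-limiting enzyme of bile acid synthesis, had 2.31 and 0.776, against 93.1 and 86.6 in WD CCl4, and fell by 5.27 ± 0.59 (limma adjusted p = 0.01838). Cyp2e1 had 556 and 478 in the tumours and fell by 3.02 ± 0.35 (limma adjusted p = 0.01871). No other gene of that list was called there, so 7.69% of the list were lower, against 0.506% of all tested genes.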
